A study of Mus musculus with 7 samples.

Results

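miR-208a, miR-208b and miR-499 are the microRNAs (miRNAs) of 3 hairpins that lie in introns of myosin heavy chain genes. They were followed through 4 days of culture of HL-1 cells. All tags of the 7 libraries were placed on mouse hairpins by their best ungapped match with at most 2 mismatches, and those falling on mmu-mir-208a, mmu-mir-208b and mmu-mir-499 (genes Mir208a, Mir208b and Mir499) were kept. These are 3 of the 685 hairpins with a placed tag, and their 6 mature strands are 6 of the 1040 strands counted. Mir208a held 100401 tags, Mir208b 157 and Mir499 343, and no tag of the 3 hairpins matched another hairpin equally well. HL-1 is an immortalised, contracting line of mouse atrial cardiomyocytes, so all libraries come from a single line, and the labels name no treatment. Small RNA was sequenced by ligation (SOLiD) after 1, 2, 3 and 4 days in culture, with 2 libraries at days 1, 3 and 4 and 1 at day 2. The labels give a replicate number, which is taken to stand for an independent repeat of the time course. The repeats are called time course 1 and time course 2 below, and the day 2 library belongs to time course 2 alone. A tag is a sequence read and its count the number of times it was read.

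Myosin heavy chains are the motor proteins of the sarcomere. Myh6 encodes the alpha chain, which prevails in the adult mouse heart and in the atria, Myh7 encodes the beta chain of the fetal ventricle and of slow skeletal muscle, and Myh7b encodes a related chain. Each hairpin is cut from the transcript of its host gene by Drosha and then by Dicer. Of the resulting duplex, one strand usually stays bound to an Argonaute protein, which finds its targets through the seed, bases 2 to 8 of the strand. miR-208a, miR-208b and miR-499 are known as a family that acts on the balance of myosin isoforms in heart and slow muscle. The host messenger RNAs were not measured in these libraries.

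On GRCm38.p6, Mir208a lies at chr14:54949060-54949142 on the minus strand, in intron 29 of 38 of Myh6, and Mir208b lies at chr14:54975700-54975776 on the minus strand, in intron 31 of 40 of Myh7. The 2 hairpins are separated by 26557 bases. Mir499 lies at chr2:155622880-155622958 on the plus strand, in intron 19 of 41 of Myh7b. Each hairpin has the strand of its host gene. The introns are 542, 461 and 481 bases long, in the same order, and were counted in the GENCODE transcripts Myh6-201, Myh7-201 and Myh7b-201. The RefSeq hairpins are shown first, with both mature strands of each in capitals, because the position of a tag on them decides its strand.

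Mir208a: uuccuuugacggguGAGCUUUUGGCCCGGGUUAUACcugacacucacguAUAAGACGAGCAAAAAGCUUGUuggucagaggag
Mir208b: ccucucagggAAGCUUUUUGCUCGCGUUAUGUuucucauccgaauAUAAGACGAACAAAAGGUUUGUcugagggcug
Mir499: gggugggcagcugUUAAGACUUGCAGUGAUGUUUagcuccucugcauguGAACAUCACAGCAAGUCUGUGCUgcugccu

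The 6 mature strands follow, with the seed in capitals.

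miR-208a-5p: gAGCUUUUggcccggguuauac
miR-208b-5p: aAGCUUUUugcucgcguuaugu
miR-208a-3p: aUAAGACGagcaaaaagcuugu
miR-208b-3p: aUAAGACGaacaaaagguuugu
miR-499-5p: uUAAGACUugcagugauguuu
miR-499-3p: gAACAUCAcagcaagucugugcu

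miR-208a-3p and miR-208b-3p had the same seed and differed at 3 of 22 positions (G10A, A16G and C18T, from miR-208a to miR-208b, counted from the 5′ end). Their partner strands, miR-208a-5p and miR-208b-5p, also shared a seed and differed at 6 of 22 positions. miR-499-5p shared bases 2 to 7 with miR-208a-3p and miR-208b-3p but not base 8. Among the 1679 mature strands of the RefSeq table, no other strand had the seed of miR-208a-3p, miR-499-5p or miR-499-3p. The seed of miR-208a-5p occurred in 1 other strand, miR-6415, which had 0 tags in these libraries.

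**Figure D1:**
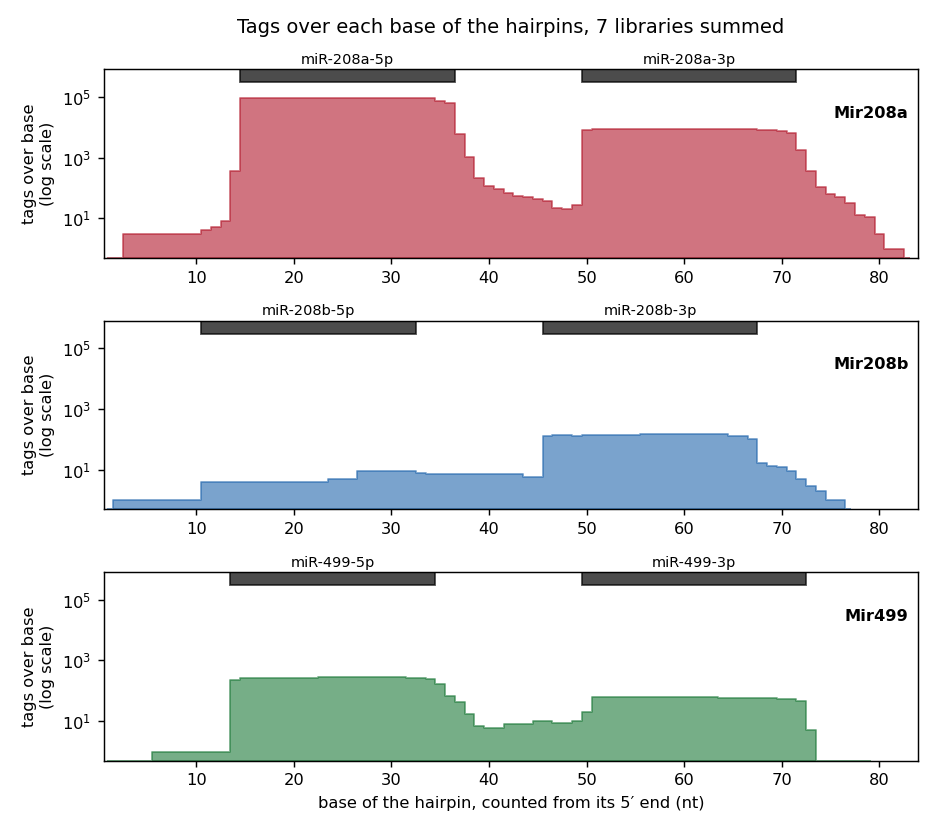
Tags over each base of the 3 hairpins (vertical axis, log scale, 7 libraries summed) against the position on the hairpin in nt from its 5′ end. Black bars mark the annotated mature strands. Both strands of Mir208a were deeply covered, with 91803 tags of miR-208a-5p and 8555 of miR-208a-3p, Mir208b was covered mainly on its 3′ arm, and Mir499 mainly on its 5′ arm.

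Levels are given in CPM, the tags of a strand per 1000000 generic tags of the library. A generic tag starts within 3 nt of the start of a mature strand, and the libraries held 4914835 to 6851766 of them. The strands are 21 to 23 nt long, so counts were not corrected for length. The ability of a sequence to be ligated and read can differ between strands, and levels of different strands carry that difference. Levels and fold changes are relative to the other tags of a library. A change in the overall amount of miRNA in the cells between days does not show in them.

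miR-208a-5p was the most abundant of the 6 strands. In the order of time courses 1 and 2, it stood at 1387 and 1212 CPM on day 1, at 2588 and 2018 on day 3 and at 2175 and 4163 on day 4, and the single library of day 2 gave 2022 CPM. It ranked 63 of 1040 strands. miR-208a-3p, the strand usually taken as the mature miR-208a, stood at 267 and 108 CPM on day 1, at 401 and 118 on day 3 and at 261 and 180 on day 4, with 147 CPM for day 2. It ranked 170. In each library miR-208a-5p was above miR-208a-3p, and the lowest level of miR-208a-3p was above the highest level of any strand of the other 2 hairpins.

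miR-499-5p stood at 6.35 and 5.16 CPM on day 1, at 3.36 and 8.68 on day 3 and at 2.44 and 9.63 on day 4, with 9.93 for day 2, from 12 to 66 tags a library. miR-208b-3p stood at 1.92 and 3.39 CPM on day 1, at 4.48 and 1.91 on day 3 and at 2.65 and 4.38 on day 4, with 3.97 for day 2, from 11 to 30 tags a library. The ranges of these strands overlapped. miR-499-3p had 1 to 18 tags a library and 1.24 ± 0.927 CPM (SD, n = 7), a range that overlapped that of miR-208b-3p. miR-208b-5p was seen as 1 tag at day 3 of time course 1 and 2 tags at day 4 of time course 2. In the other 5 libraries it had 0 tags, which allows a level of up to 0.443 to 0.61 CPM (3 counts in the library).

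**Figure D2:**
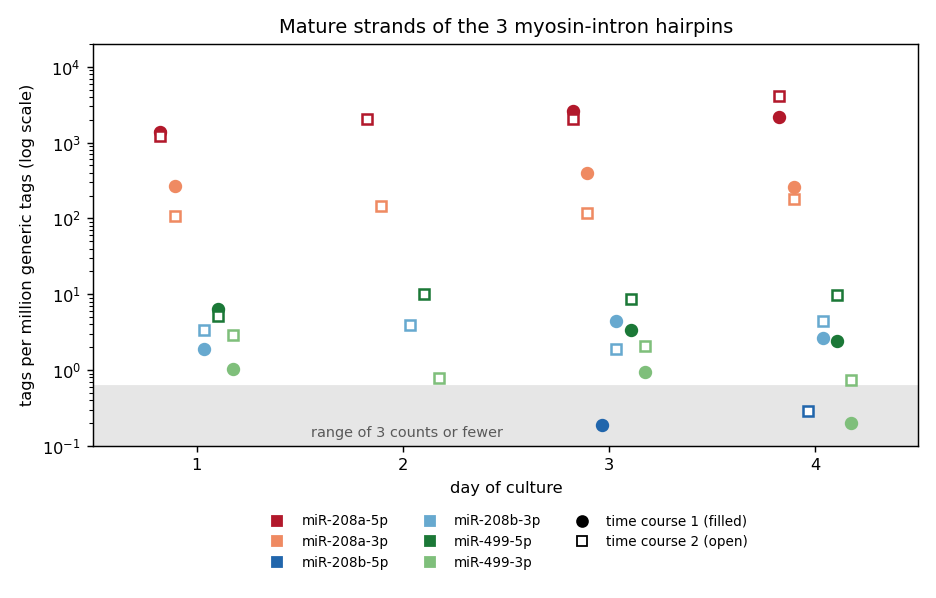
Level of each mature strand in CPM (vertical axis, log scale) by day of culture, with filled circles for time course 1 and open squares for time course 2; libraries with 0 tags are not drawn and the grey band marks the range of 3 counts or fewer. miR-208a-5p lay between 1212 and 4163 CPM and miR-208a-3p between 108 and 401 CPM, while the strands of Mir208b and Mir499 lay below 10 CPM.

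The order of the levels was tested within libraries, as the log2 ratio of 2 strands in the same library, by an exact two-sided sign-flip permutation over the 7 libraries. The permutation treats the 7 libraries as separate samples, whereas 3 of them belong to time course 1 and 4 to time course 2. Its smallest possible value is p = 0.0156 (exact permutation). The ratio of miR-208a-3p to miR-208b-3p was above 0 in 7 of 7 libraries (adjusted p = 0.0208 over 4 ratios, exact permutation). It lay between 6.46 and 7.06 in time course 1 and between 4.97 and 5.88 in time course 2, so that the time courses did not overlap. The ratio of miR-208a-5p to miR-208a-3p was 3.43 ± 0.77 (SD, n = 7) on the log2 scale, above 0 in 7 of 7 libraries, with the same adjusted p = 0.0208 by the exact permutation. It lay between 2.38 and 3.06 in time course 1 and between 3.48 and 4.53 in time course 2, again without overlap. The ratio of miR-499-5p to miR-208b-3p was 0.90 ± 0.93, above 0 in 5 of 7 libraries (p and adjusted p = 0.0625, exact permutation), so that an order between miR-499-5p and miR-208b-3p was not shown at these counts.

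The paralogous hairpins Mir208a and Mir208b gave mostly opposite strands. Of the tags on both strands of Mir208a, 91.5% were from the 5′ strand (95% Wilson interval 91.3 to 91.6%). In the single libraries this share was 83.9% to 89.3% in time course 1 and 91.8% to 95.9% in time course 2. For Mir208b it was 2.22% (interval 0.759 to 6.33%), from 3 tags of the 5′ strand against 132 of the 3′ strand. The Mir208b share was 0 in 5 libraries, 4% at day 3 of time course 1 and 6.25% at day 4 of time course 2, below the Mir208a share of every library. Intervals cover counting error only.

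Mir499 gave mainly its 5′ strand, as Mir208a did. The share was 83.9% (interval 79.5 to 87.5%), with 271 tags of miR-499-5p and 52 of miR-499-3p. It was lowest at day 1 of time course 2, at 64%, and 78.3% to 93% elsewhere. The log2 ratio of miR-499-5p to miR-499-3p was 2.47 ± 1.01 (SD, n = 7), above 0 in 7 of 7 libraries (adjusted p = 0.0208, exact permutation). Over the 280 strand pairs with at least 150 tags, the median share of the more abundant strand was 94.7%, so shares as uneven as these were common.

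**Figure D3:**
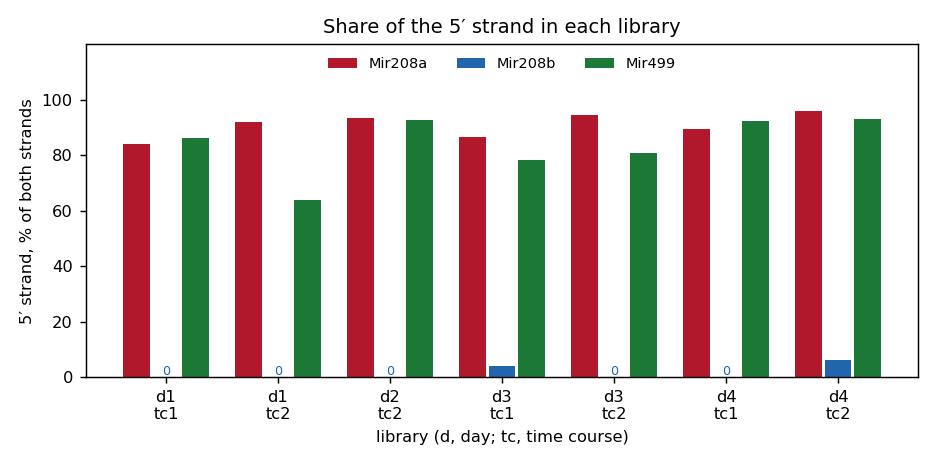
Share of the 5′ strand among the tags of both mature strands (vertical axis, %) in each library, by day (d) and time course (tc), for the 3 hairpins; a 0 marks libraries without a tag of miR-208b-5p. The 5′ strand was 83.9% to 95.9% of Mir208a and 0 to 6.25% of Mir208b in every library.

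The comparison of day 4 with day 1 asks which miRNAs differ between the late and the early culture. Relative to the other strands, miR-208a-5p was 2.81 times as high at day 4 as at day 1, a log2 fold change of 1.49 ± 0.39 (SE, n = 2 libraries a day). Both day 1 libraries were below the other 5, and the highest library, day 4 of time course 2, had 28524 tags. The change did not pass the threshold of 0.05 (edgeR quasi-likelihood test, adjusted p = 0.328). None of the 5 member strands that passed the filter on low counts did, against 0% of all 603 strands tested. At an unadjusted p under 0.05 there were 68 strands, and 8 had a smaller p than miR-208a-5p.

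Both time courses had more miR-208a-5p at the end, with day 4 above day 1 by 0.65 on the log2 scale in time course 1 and by 1.78 in time course 2. With the time course as a block in the fit, 8 of 603 strands (1.33%) passed, and miR-208a-5p had a log2 fold change of 1.47 ± 0.35 with edgeR's adjusted p = 0.0599. DESeq2 passed 9 strands (1.49%), miR-208a-5p among them (1.48 ± 0.43, DESeq2 adjusted p = 0.0406). Without the filter on low counts edgeR passed 11 of 1036 (1.06%), with miR-208a-5p at an adjusted p = 0.0194. Without the day 4 library of time course 2 the log2 fold change was 0.99 (edgeR adjusted p = 0.549). Library totals in place of TMM scaling moved the median of all strands from 0.02 to -0.18 and that of miR-208a-5p to 1.29 (edgeR adjusted p = 0.293).

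miR-208a-3p, from the other arm of the same hairpin, differed by 0.43 ± 0.65 on the log2 scale between day 4 and day 1 (edgeR adjusted p = 0.874). In CPM, without TMM scaling, it was 0.03 lower in time course 1 and 0.73 higher in time course 2. The log2 odds of the 5′ strand of Mir208a changed by 0.87 ± 0.75 from day 1 to day 4, in a fit without the time course. This did not pass (limma adjusted p = 0.735, 0% of 215 hairpins passing). Under 5 alternatives, the block among them, limma's adjusted p was 0.353 to 0.731. Within each time course the 5′ share rose from each sampled day to the next, a pattern noticed after the values were seen. It was 83.9%, 86.6% and 89.3% at days 1, 3 and 4 of time course 1. In time course 2 it was 91.8%, 93.2%, 94.5% and 95.9% at days 1 to 4. miR-208b-3p differed by 0.61 ± 0.66 (edgeR adjusted p = 0.791) and miR-499-5p by 0.29 ± 0.69 (edgeR adjusted p = 0.933).

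The levels of miR-499-5p went opposite ways, from 6.35 to 2.44 CPM in time course 1 and from 5.16 to 9.63 CPM in time course 2. miR-499-3p had 7 and 18 tags at day 1 and 1 and 5 tags at day 4, a log2 fold change of -1.76 ± 0.98 (edgeR adjusted p = 0.565). The median log2 fold change was 0.43 over the 5 member strands and 0.02 over all 603.

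Between day 3 and day 1, none of the 5 strands passed edgeR's test either, against 0% of 603. miR-208a-5p had a log2 fold change of 0.99 ± 0.38 (edgeR adjusted p = 0.846), and 32 strands had an unadjusted p under 0.05. With the time course as a block 8 of 603 strands (1.33%) passed and DESeq2 passed 8, none of them a member: miR-208a-5p had an adjusted p = 0.322 under edgeR's block and 0.611 by DESeq2. Between day 4 and day 3 the log2 difference of miR-208a-5p was 0.50 ± 0.38 (edgeR adjusted p = 0.997), with 0% of 603 passing, 10 at an unadjusted p under 0.05 and 0 by DESeq2. It was 0.25 lower at day 4 than at day 3 in time course 1 and 1.04 higher in time course 2.

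**Figure D4:**
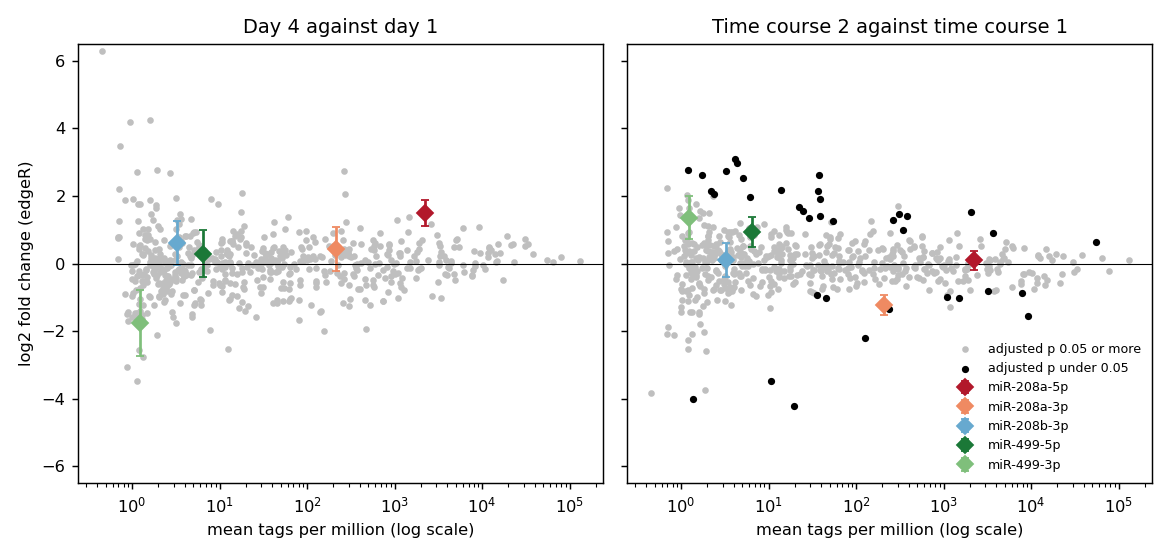
Log2 fold change by edgeR (vertical axis) against mean level in CPM (horizontal axis, log scale) for the 603 strands tested, at day 4 against day 1 (left) and in time course 2 against time course 1 (right). Black points passed an adjusted p of 0.05, and diamonds with SE bars are the 5 member strands. miR-208a-5p is the member with the highest log2 fold change on the left, 1.49, and miR-208a-3p the lowest on the right, -1.23.

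The time courses themselves were compared at matched days. Each time course is a single repeat whose libraries stood in as its replicates. The p-values below therefore do not measure the spread between repeats. miR-208a-3p was lower in time course 2 on each of the days that both sampled, at 108 against 267 CPM at day 1, 118 against 401 at day 3 and 180 against 261 at day 4. The log2 fold change was -1.23 ± 0.31 (edgeR adjusted p = 0.0363). It was the 1 member of 5 that passed, where 38 of all 603 strands (6.3%) passed in either direction and 2.16% were lower. miR-208a-5p, at 2050 CPM on average in time course 1 and 2464 in time course 2 over those days, differed by 0.10 ± 0.28 (edgeR adjusted p = 0.857).

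The difference between both strands, taken as the log2 odds of the 5′ strand, was 1.33 ± 0.34 between time courses. It did not pass limma's test (adjusted p = 0.156), while 1 of 215 hairpins did (0.465%). DESeq2 passed 43 strands (7.13%), again with miR-208a-3p (-1.29 ± 0.30, DESeq2 adjusted p = 0.000618). In edgeR the call for miR-208a-3p was lost without any one of 4 libraries. By edgeR the adjusted p was 0.319 and 0.334 without the day 1 libraries of time courses 1 and 2, and 0.144 and 0.333 without the day 3 libraries, with log2 fold changes between -1.27 and -0.91. The calls among all strands numbered 0, 0, 34 and 3 without those libraries, in the same order. Scaled to library totals, where 23 strands (3.81%) passed, the call for miR-208a-3p was also lost (edgeR adjusted p = 0.0634). miR-208b-3p, with the same seed, differed by 0.10 ± 0.51 (edgeR adjusted p = 0.916).

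miR-499-5p was 0.93 ± 0.44 higher on the log2 scale in time course 2 (edgeR adjusted p = 0.221) and miR-499-3p 1.36 ± 0.63 higher (adjusted p = 0.22). Neither passed. By single days miR-499-5p was higher in time course 2 at days 3 and 4 and lower at day 1.

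The start of a strand sets its seed, and the 3 hairpins differed in how closely tags kept to the annotated start. Of the miR-208a-5p tags 99.5% started there, and of the miR-208a-3p tags 90.8%, with 7.26% starting 1 base later. For miR-208b-3p 93.2% kept to the annotated start, and for miR-499-5p 83%, with 16.6% starting 1 base later. Over the 329 annotated strands with at least 150 tags the median was 96.2%.

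miR-499-3p was the exception. Of its 52 tags 19.2% had the annotated start and 78.8% started 1 base later (interval 66 to 87.8%). The annotated form and the most frequent tag of miR-499-3p are given in the DNA letters of the deposited tags and with bases 2 to 8 in capitals, because the later start gives another seed.

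miR-499-3p annotated tag (6 tags): gAACATCAcagcaagtctgtgct
miR-499-3p most frequent tag (23 tags): aACATCACagcaagtctgtgct

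Counted by the seed actually read, the seed TAAGACG shared by miR-208a-3p and miR-208b-3p had 195 ± 95.3 CPM (SD, n = 7), and 98.4% of its tags were from miR-208a-3p. The seed AGCTTTT of the 5′ strands had 2210 ± 971 CPM, from 91247 tags of which 3 were miR-208b-5p. The seed TAAGACT of miR-499-5p had 5.49 ± 2.63 CPM.

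In these libraries the 3′ ends of miR-208a-5p differed between early and late days, although day 4 against day 1 did not pass limma's test. The forms that carried this difference are shown with the seed in capitals.

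miR-208a-5p annotated end (51481 tags): gAGCTTTTggcccgggttatac
miR-208a-5p 1 base shorter (12064 tags): gAGCTTTTggcccgggttata
miR-208a-5p 2 bases shorter (13992 tags): gAGCTTTTggcccgggttat

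The share of miR-208a-5p tags with the annotated 3′ end was 47% and 43.6% on day 1, 64.7% and 59% on day 3 and 61.5% and 67.7% on day 4, with 49.3% for day 2. Every library of days 1 and 2 lay below every library of days 3 and 4, in both time courses. This split of the days was noticed after the values were seen. Over the 329 annotated strands with at least 150 tags the median share at the annotated 3′ end was 35.8%. The share of tags ending 2 bases earlier was 24.9% and 24% on day 1, 13.6% and 12.8% on day 3 and 14.1% and 11.9% on day 4, with 21.8% for day 2. In levels, the unchanged 22-nt tag went from 632 and 488 CPM at day 1 to 1304 and 2669 CPM at day 4, and the tag 2 bases shorter from 335 and 273 CPM to 292 and 477 CPM. The higher level of miR-208a-5p at day 4 therefore lay mainly in tags with the annotated end.

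The log2 odds of the annotated end of miR-208a-5p were 1.14 ± 0.24 higher at day 4 than at day 1. A larger change was found for 3 of the 313 strands, and that of miR-208a-5p did not pass the threshold (limma adjusted p = 0.175, with 0% of 313 strands passing). Between time courses the same odds differed by -0.05 ± 0.21 (limma adjusted p = 0.943). miR-208a-3p showed less change, with 53.2% and 52.8% of its tags at the annotated end at day 1 and 56.2% and 61.1% at day 4 (log2 odds 0.33 ± 0.21, limma adjusted p = 0.603). miR-499-5p ended past the RefSeq end in 59.8% of its tags, most often by a single base.

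**Figure D5:**
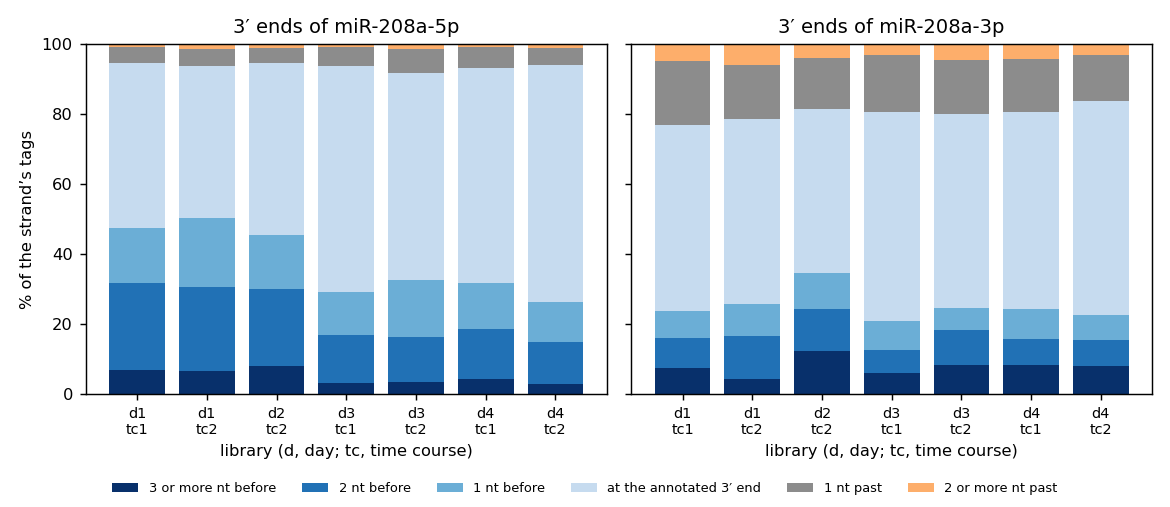
Share of the tags of miR-208a-5p (left) and miR-208a-3p (right) by 3′ end relative to the annotated end (vertical axis, %), in each library by day (d) and time course (tc). The annotated end of miR-208a-5p held 43.6% to 49.3% of tags at days 1 and 2 and 59% to 67.7% at days 3 and 4.

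Some tags of the members differed from the hairpin by a base. Positions are counted from the annotated 5′ end, with the base of the hairpin first, and these changes were picked after their values were seen. In miR-208b-3p, 22 of 132 tags (16.7%, interval 11.3 to 23.9%) carried A10G, while 8 of 8555 miR-208a-3p tags (0.0935%) had another base at position 10. A10G brings in the base that miR-208a-3p has at this position, whereas the changed tag keeps the miR-208b bases at positions 16 and 18. The capitals below mark the 3 positions at which miR-208a-3p and miR-208b-3p differ.

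miR-208a-3p most frequent tag (4191 tags): ataagacgaGcaaaaAgCttgt
miR-208b-3p most frequent tag (67 tags): ataagacgaAcaaaaGgTttgt
miR-208b-3p changed tag (17 tags): ataagacgaGcaaaaGgTttgt

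The change was seen in 3 of 50 miR-208b-3p tags in time course 1 (6%, interval 2.06 to 16.2%) and in 19 of 82 in time course 2 (23.2%, interval 15.4 to 33.4%). It had 0 to 2 tags a library in time course 1 and 2 to 8 in time course 2. In miR-208a-5p the position that changed most was T17, in 2945 of 91803 tags (3.21%), most often as T17A (1.89%). The share was 1.51%, 1.72% and 1.46% in time course 1 at days 1, 3 and 4, and 4.09%, 3.55%, 6.83% and 3.32% in time course 2 at days 1 to 4. In miR-208a-3p it was T19, with 2.14% of tags in time course 1 and 4.82% in time course 2. Changes at any position, over all generic tags, were in 5.06% to 9.04% of tags in time course 1. In time course 2 the share was 6.53% to 7.75%, so that the time courses overlapped there. A change at any position was in 4.58% of miR-208a-5p, 5.39% of miR-208a-3p and 19.7% of miR-208b-3p tags. The median over the 424 strands with at least 150 tags was 7.09%. Whether these changes arose in the cells or in sequencing was not tested.

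The hairpins differed in the share of tags outside the generic window. Over the 424 strands with at least 150 tags the median share outside it, counted by arm rather than by hairpin, was 0.808% and the upper quartile 3.19%. For Mir208a it was 43 of 100401 tags (0.0428%), of which 26 reached into the loop. For Mir499 they were 20 of 343 tags (5.83%) and for Mir208b 22 of 157 (14%, interval 9.44 to 20.3%), spread over 16 distinct sequences of at most 4 tags each.

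The cell type of the libraries was checked with marker miRNAs. The cardiomyocyte list (the strands of miR-208a, miR-1a, miR-133a and miR-499) summed to 84777 to 104707 CPM a library. Of its 9 strands none was at 0 in any library, and 8 had at least 150 tags in all. The list includes the strands of Mir208a and Mir499 themselves. Its sum came mostly from miR-1a-3p and miR-133a-3p, with means of 64684 and 22449 CPM. Both are miRNAs of striated muscle, so the sum does not tell cardiomyocytes from skeletal muscle. The fibroblast list (miR-199a, miR-199b and miR-214) summed to 8.55 to 27.9 CPM over 6 strands, 2 of them at 0 in some library, and the blood list (10 strands of miR-142a, miR-144, miR-150, miR-223 and miR-451a) to 36 to 60.8 CPM, also with 2 at 0 in some library. miR-126a, of endothelium, had 484 to 926 CPM in its 2 strands. The neuron list (miR-9 and miR-124a) summed to 16.5 to 34 CPM over 4 strands, 1 at 0 in some library, and miR-122, of hepatocytes, had 0.56 to 4.2 CPM. The skeletal muscle list (miR-206 and miR-133b) summed to 8121 to 12462 CPM.

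The other muscle miRNAs showed no call in any of the 4 abundance comparisons. Of the 11 strands of miR-1a, miR-133a, miR-133b, miR-206 and miR-486, 9 passed the filter on low counts, and 0 rose and 0 fell by edgeR's adjusted p at day 4 against day 1, beside 0% of all 603. Their median log2 fold change was 0.31, with a range of -0.64 to 0.95. miR-1a-3p, the main miRNA of striated muscle, had 64684 ± 7588 CPM (SD, n = 7) and a log2 fold change of 0.05 ± 0.25 (edgeR adjusted p = 0.967). miR-133a-3p had 22449 ± 4259 CPM and a log2 fold change of 0.58 ± 0.29 (edgeR adjusted p = 0.565). miR-486-5p, identical in sequence to miR-3107-5p, had 0.95 ± 0.51 (edgeR adjusted p = 0.565). In time course 2 against time course 1 none of the 9 passed, beside 6.3% of all strands, and their median was 0.18.

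The strands most like the members in their levels over the 7 libraries were found among the 421 other strands with at least 150 tags, by Pearson's r of log2(CPM + 1). For miR-208a-5p they were miR-25-3p (r = 0.977), miR-184-5p (0.934), miR-9-3p (0.927), miR-3470b-5p (0.922) and miR-146b-5p (0.914). Of these, miR-184-5p, miR-9-3p and miR-3470b-5p averaged only 5.17, 5.33 and 9.73 CPM, levels at which counting error is large. miR-25-3p had 2377 and 2345 CPM at day 1 and 3210 and 4113 CPM at day 4. For miR-208a-3p they were miR-181b-1-3p (r = 0.983), miR-23a-3p (0.905), miR-1927-5p (0.890), miR-511-3p (0.883) and miR-210-3p (0.879). Of these, miR-1927-5p averaged only 5.86 CPM. miR-181b-1-3p had 39, 56.3 and 37.2 CPM in time course 1 at days 1, 3 and 4 and 21.8 to 28.6 CPM in time course 2. No strand appeared in both lists, which says little with only 5 of 421 strands in each. The r between miR-208a-5p and miR-208a-3p themselves was 0.28 (n = 7). These values are descriptions over 7 libraries that share time courses and depth.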

How the data were processed

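Total RNA of HL-1 cultures was prepared with TRIzol and small RNA was selected on gels before SOLiD sequencing. The authors matched reads to miRNA hairpins with the SOLiD small RNA pipeline (build mm9 in the submitters' processing notes) and deposited raw counts for each distinct tag and library, without normalization. Reads that their mapping dropped are not analysed here. Lines without a sequence (293 tags) were left out.

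The 79503 distinct tags were placed on 1222 hairpins (1005 from RefSeq GRCm38.p6, 217 from GENCODE), with at least 16 matched nt, at most 2 mismatches and an overhang of at most 4 bases. No mismatch was needed for 92.9% of counts and 0.342% found no place. Counts tied between strands (2.69%, none of a member) were shared out evenly. Where RefSeq lists no strand on an arm, its most frequent tag stood in (264 arms, none of a member).

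Strand counts were tested with edgeR 4.0.16 (quasi-likelihood, TMM, filterByExpr, Benjamini-Hochberg over 603 strands, threshold 0.05) in a model of day on 7 libraries, which leaves 3 degrees of freedom. Day 2, a lone library, adds none. The SE is the log2 fold change over the root of the F statistic. Time courses were compared with day in the model. Shares were tested with limma 3.58.1 on log2 odds (pseudocount 0.5, at least 50 tags in each library). Each test was tried on simulated data. The counts simulated for edgeR had a smaller spread than the libraries, whose fitted biological coefficient of variation was 0.393. The shares simulated for limma had a set spread and set numbers of tags, not those of the libraries. Neither trial therefore shows how its test performs at the spread of these libraries. DESeq2 1.42.0, other scalings, filters and placements, and leaving out each library were alternatives. The replicate number is taken to mark an independent repeat of the time course. Equal numbers deviated together over 603 strands (r = 0.440, 0.405 and 0.373 for the 3 pairs of days). The block on time course is therefore given where it moves a result. The libraries thus measure the spread between cultures of a single line.

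All 6 member strands were named, with muscle and marker miRNAs from fixed lists and the 5 strands most like each miR-208a strand by r. The members and lists were chosen with earlier results of these data known. Wilson intervals (95%) and the floor of 3 counts, 0.438 to 0.61 CPM, cover counting error only.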

Additional observations from a re-analysis of the deposited data

Results flagged for a closer look

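In 2 strands the change of CPM from day 1 to day 4 had opposite signs in the time courses. CPM leaves out the TMM factors of the tests, 1.07 and 0.925 for days 1 and 4 of time course 1. With these factors the sign of miR-208a-3p in time course 1 turns, and that of miR-499-5p does not. Each change compares single libraries, and the difference between time courses was not tested. The log2 ratio of the miR-208a-3p CPM at day 4 to day 1 was -0.03 for time course 1 and 0.73 for time course 2. That of miR-499-5p was -1.38 for time course 1, from 43 and 12 tags, against 0.90 for time course 2, from 32 and 66 tags. Of 10 sets of member levels examined for a library far from the others (all 7 libraries, or the 4 of time course 2), 0 held one.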

How the results depend on the processing

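The day comparisons of abundance had 0 calls as planned. For day 4 against day 1 the count was 9 by DESeq2, 11 without the filter on low counts, 1 with day as a number and 8 with the time course as a replicate block. For day 3 against day 1 it was 8, 10 and 8 by DESeq2, without the filter and under the block, and for day 4 against day 3 it was 1 without the filter. Leaving out each library gave 0 to 1 calls in each of the 3 comparisons. The block changed no other call, and under it miR-208a-5p had an adjusted p = 0.0599 in edgeR at day 4 against day 1. The 38 calls between time courses became 23 with library totals, 77 without the filter, 69 with all tags of the arm and 0 to 61 without a library each.

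Signs of differences that had not passed turned as follows, in log2 fold change. At day 3 against day 1 miR-499-3p was 0.11 with all tags of the arm. At day 4 against day 3 miR-208a-3p was 0.04 under the block and miR-499-5p -0.01 with all tags of the arm. Between time courses miR-208b-3p was -0.20 with 0 mismatches. Without a library each, the ranges at day 4 against day 1 were -0.01 to 1.20 for miR-208a-3p and -0.98 to 0.91 for miR-499-5p. At day 3 against day 1 they were -0.51 to 1.42 for miR-208a-3p, -0.33 to 0.97 for miR-208b-3p, -0.86 to 0.75 for miR-499-3p and -0.58 to 0.74 for miR-499-5p. At day 4 against day 3 they were -0.86 to 0.98 for miR-208a-3p, -0.33 to 0.94 for miR-208b-3p and -1.18 to 0.87 for miR-499-5p. Between time courses they were -0.30 to 0.38 for miR-208a-5p and -0.33 to 0.78 for miR-208b-3p. The cause was not tested.

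At day 4 against day 1 the arm share and 3′ ends of miR-208a had 0 calls with a pseudocount of 0.1, at least 20 tags, 0 mismatches, the block or a mean trend in limma, the last chosen after seeing the data. For the shares between time courses no alternative was run. The within-library ratios kept their sign under each alternative, and those with an adjusted p = 0.0208 kept it or had 0.0417 with 1 library left out (exact permutation). At 0 to 66 tags a library, the strands of mir-208b and mir-499 limit what a difference between days can show.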
